A study of Mus musculus with 16 samples.

Results

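The genes described here encode 9 proteins that share the mucus of the gut with the gel-forming mucin Muc2 or help to make it: Fcgbp, Zg16, Tff1, Tff2, Tff3, Agr2, Agr3, Spink4 and Reg4. They are a fixed list of gene names, chosen with earlier results of these data known, out of the 45513 genes counted in 16 RNA-sequencing libraries from the colon of 8 mice. From every mouse, live EpCAM+ epithelial cells were divided by flow cytometry into those with and those without the tdTom label. Both populations, tdTom+ and tdTom-, therefore have 8 libraries, and each mouse number marks a pair from the same animal. The mice were Atoh1(WT)CreERT2; Rosa26tdTom/+ animals on a C57BL/6 background, males and females aged 8 to 16 weeks, and both populations carry the same alleles and the same tamoxifen treatment. For the tamoxifen, the labels state 3 daily injections of 1 mg. The treatment methods give this daily schedule for defining the secretory signature, which is the comparison made here. The sequencing methods state 3 mg with cells collected 24 h later, and they name tdTom+ cells only. In this model CreERT2 lies downstream of the Atoh1 coding sequence, so that tamoxifen labels cells expressing Atoh1 at that time and the tdTom reporter then stays on in them and in their progeny. Crypt-enriched fractions were sorted and the first fraction was discarded. The comparison of both populations defines the secretory expression profile of the colon, and the values below show how the partners of Muc2 fall within it.

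Goblet cells make the colonic mucus layer by storing Muc2 in granules and releasing it, after which the polymer expands into a gel that keeps bacteria away from the epithelium. Fcgbp is a large repetitive protein bound into that gel, and Zg16 is a small lectin that binds the cell wall of Gram-positive bacteria. The trefoil factors Tff1, Tff2 and Tff3 are small disulfide-rich peptides secreted with mucins, Tff1 and Tff2 mainly in the stomach and Tff3 in the intestine. Agr2 and Agr3 belong to the protein disulfide isomerase family, and Agr2 acts in the endoplasmic reticulum, where Muc2 is folded. Spink4 is a Kazal-type protease inhibitor of goblet cells, and Reg4 is a secreted C-type lectin known in the mouse colon as a marker of deep crypt secretory cells.

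All 9 genes are annotated as protein coding, and the positions that follow are those of the deposited tables, on GRCm38. The trefoil factors form a cluster on the reverse strand of chromosome 17, with Tff3 at 31125306 to 31129646, Tff2 at 31141049 to 31144282 and Tff1 at 31161396 to 31165053. Gaps of 11.4 kb and 17.1 kb separate them. Agr3 (chromosome 12, 35925620 to 35949736) and Agr2 (35992907 to 36004087) lie on the same strand 43.2 kb apart. Fcgbp (chromosome 7, 28071236 to 28120862) is followed after 8.6 kb by 9530053A07Rik, a gene of related sequence. The other members stand apart, Zg16 on chromosome 7 (127050156 to 127051977), Reg4 on chromosome 3 (98222156 to 98236748) and Spink4 on chromosome 4 (40920052 to 40931395).

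The RefSeq table of promoters holds 4 of the 9 members, namely Fcgbp, Agr2, Agr3 and Reg4, and also Muc2. The 250 bases before the RefSeq start (GRCm38.p6, forward strand in each case) are printed for the adjacent pairs and for Muc2 as their reference. The counts of Fcgbp and 9530053A07Rik moved together, and those of Agr2 and Agr3 in opposite directions. Reads that match both Fcgbp and 9530053A07Rik leave the level of 9530053A07Rik uncertain, as described below. Capitals mark the letters CAGCTG, or CAGATG on either strand, which are forms of the E-box, the short motif recognised by basic helix-loop-helix factors such as ATOH1. The windows are chr7:28070986-28071235 for Fcgbp, chr7:28129216-28129465 for 9530053A07Rik, chr7:141690090-141690339 for Muc2, chr12:35992675-35992924 for Agr2 and chr12:35925371-35925620 for Agr3.
Fcgbp: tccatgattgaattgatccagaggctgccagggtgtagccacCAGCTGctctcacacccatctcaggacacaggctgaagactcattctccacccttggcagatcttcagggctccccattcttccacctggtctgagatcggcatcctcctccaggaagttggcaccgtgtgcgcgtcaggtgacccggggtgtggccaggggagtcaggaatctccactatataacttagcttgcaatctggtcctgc
9530053A07Rik: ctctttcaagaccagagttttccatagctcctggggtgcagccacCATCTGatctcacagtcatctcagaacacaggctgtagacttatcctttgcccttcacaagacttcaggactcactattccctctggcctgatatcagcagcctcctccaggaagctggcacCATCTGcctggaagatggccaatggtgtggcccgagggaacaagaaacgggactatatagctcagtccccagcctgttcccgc
Muc2: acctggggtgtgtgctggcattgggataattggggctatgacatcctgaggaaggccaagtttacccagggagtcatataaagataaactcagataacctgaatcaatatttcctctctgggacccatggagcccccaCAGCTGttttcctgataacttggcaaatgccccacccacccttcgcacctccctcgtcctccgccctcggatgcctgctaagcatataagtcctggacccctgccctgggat
Agr2: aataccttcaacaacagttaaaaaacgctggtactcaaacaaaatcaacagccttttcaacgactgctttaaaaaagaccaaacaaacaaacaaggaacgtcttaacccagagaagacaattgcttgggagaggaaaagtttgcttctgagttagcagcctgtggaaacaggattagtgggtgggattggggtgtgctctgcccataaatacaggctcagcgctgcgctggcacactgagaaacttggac
Agr3: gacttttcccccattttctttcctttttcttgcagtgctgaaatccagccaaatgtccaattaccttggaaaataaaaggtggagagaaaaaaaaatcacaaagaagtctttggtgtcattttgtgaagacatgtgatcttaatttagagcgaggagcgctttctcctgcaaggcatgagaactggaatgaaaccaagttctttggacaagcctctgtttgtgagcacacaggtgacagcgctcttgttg

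Fcgbp and Muc2 each held 1 match to CAGCTG, and 9530053A07Rik held 2 matches to CAGATG. Neither set of letters occurred in the windows of Agr2, Agr3 or Reg4. Of 32817 promoter windows of that length, 13.0% held CAGCTG, 14.5% held CAGATG and 25.5% held at least 1 of them, and matches to the 2 motifs cannot share bases. These matches describe the windows only.

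Total counts ran from 16482530 to 24218367 in tdTom+ libraries and from 18318172 to 45791503 in tdTom- libraries, the largest being that of mouse 4. A limit of detection of 3 counts equals 0.124 to 0.182 counts per 1e6 (CPM) in tdTom+ and 0.0655 to 0.164 CPM in tdTom- libraries. These limits use total counts, without the normalization of library sizes used for the levels of single libraries. The share of mitochondrial counts was 2.23% to 6.92% (median 4.99%) in tdTom+ libraries and 3.74% to 9.97% (median 7.45%) in tdTom- libraries, lower in the tdTom+ library in 8 of 8 mice, and its part in the results was not tested. Atoh1 itself rose 23.3-fold in tdTom+ cells (log2 fold change 4.54, SE 0.15, edgeR adjusted p = 1.14e-15). Markers of other lineages moved the opposite way. Of 10 absorptive cell markers 9 were lower in tdTom+ cells and 0 higher, with a summed level of 902.6 to 1713 CPM against 5077 to 10680 CPM. Of 10 enteroendocrine markers 8 were lower, and of 9 tuft cell markers tested 7 were lower. All 10 epithelial markers were detected in both populations, but 7 of them were lower and 1 higher in tdTom+ cells, with a summed level of 6107 to 7199 CPM against 13270 to 18110 CPM. That sum includes Car1, with a mean of 291.8 CPM in tdTom+ and 5196 CPM in tdTom- libraries, and Krt20, which is also among the absorptive markers. Epcam was 1.15-fold and Cdh1 1.30-fold lower in tdTom+ cells. Only 3 of 10 immune markers had enough counts to be tested, and 1 of them, Ptprc, was lower in tdTom+ cells. Another, Lyz2, was not called (edgeR adjusted p = 0.0108) but was lower in 8 of 8 mice. These marker calls come from the fit without a mouse term. With the mouse as a block, Lyz2, the absorptive marker Guca2a and the tuft marker Avil were also lower (edgeR adjusted p = 1.62e-06, 0.00882 and 0.00312). The part of cell composition in the differences below was not tested, and in sorted bulk samples fewer cells of a type and less RNA per cell cannot be told apart.

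Of the members, 7 were higher in tdTom+ cells, Agr3 was lower, and Tff1 had too few counts to be tested. Those 7 are Fcgbp, Zg16, Tff2, Tff3, Agr2, Spink4 and Reg4, and in each of them every tdTom+ library stood above every tdTom- library. Their log2 fold changes ran from 3.56 for Zg16 to 5.16 for Tff2, equal to 11.8-fold and 35.9-fold. A call required an adjusted p below 0.01 by edgeR's quasi-likelihood test over 15841 genes. Among all genes tested 25.5% were called higher and 25.5% lower, and 15.2% had every tdTom+ library above every tdTom- library. The median log2 fold change was 3.98 over the 8 members tested and 0.0039 over all genes tested. Tff2 passed the filter on low counts only through its tdTom+ libraries, so its inclusion already implies a difference. Together the 9 members took 3.03% to 5.02% of all counts in tdTom+ libraries and 0.139% to 0.441% in tdTom- libraries.

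**Figure D1:**
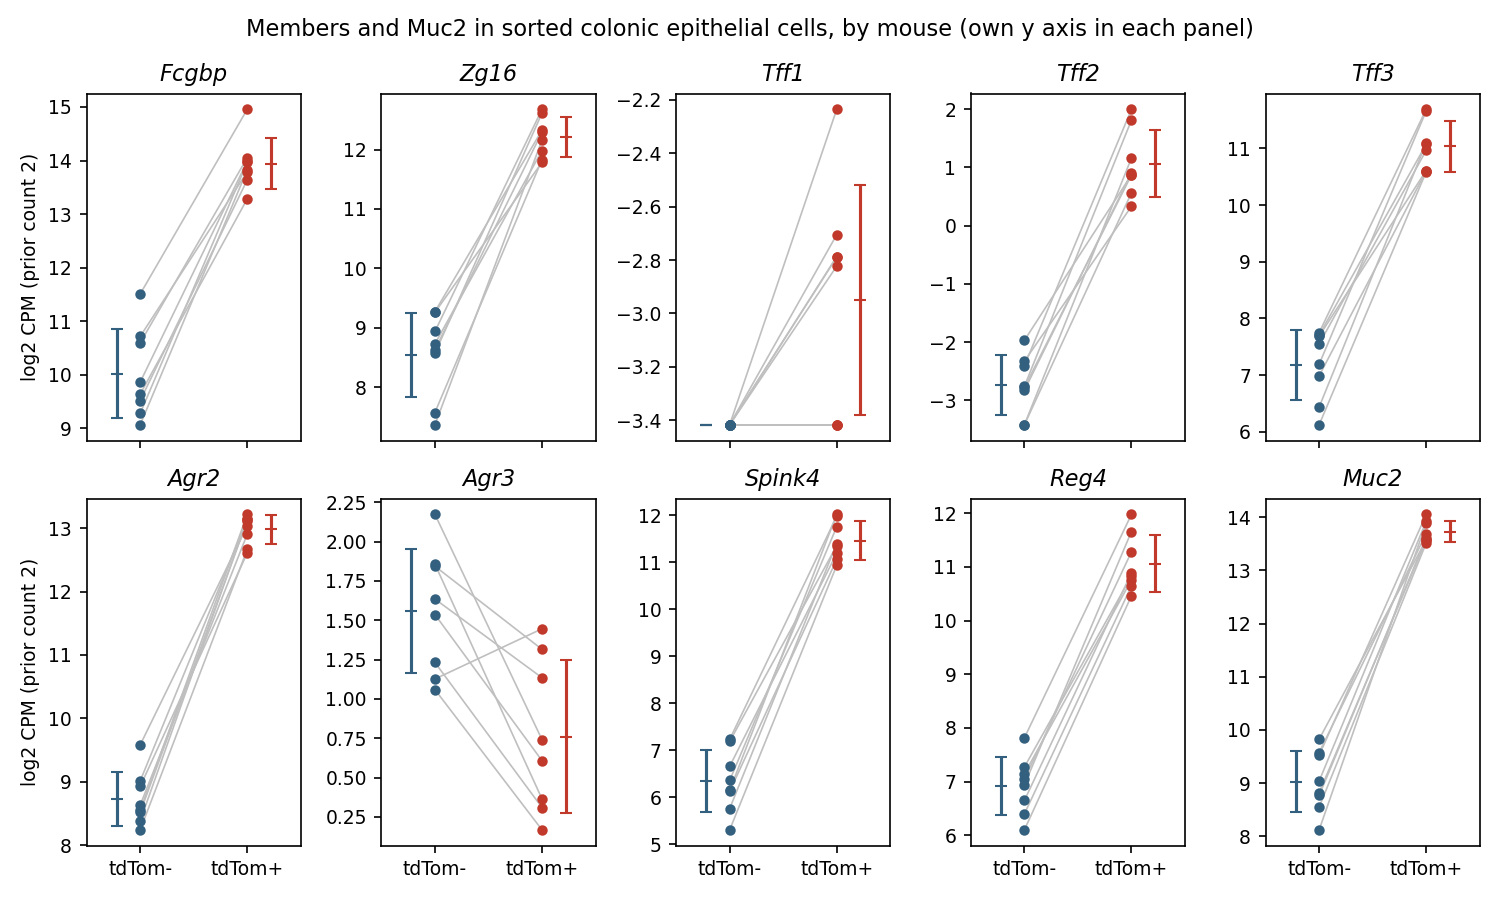
Level of each member and of Muc2 as log2 CPM with a prior count of 2 (y axis, its own in each panel) in tdTom- and tdTom+ libraries (x axis), with a grey line joining the libraries of a mouse and bars giving the mean ± SD of 8 libraries. Lines climb in every mouse for 7 members and for Muc2, fall in 7 of 8 mice for Agr3, and start from 0 counts for Tff1, where points at the bottom of the panel are libraries without a count.

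Muc2 is the reference for what follows. Its level was 11699 CPM in the lowest, 12855 in the median and 16981 in the highest tdTom+ library, against 278.4, 488.7 and 907.5 CPM in tdTom- libraries. The fold change was 24.5 (log2 4.61, SE 0.22, edgeR adjusted p = 2.63e-13). The tdTom- level was 1.84% to 7.44% of the tdTom+ level of the same mouse, with a median of 3.61%.

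The proteins that are bound into the gel or act in it against bacteria come first. Fcgbp had 9984, 15257 and 31777 CPM in the lowest, median and highest tdTom+ library and 537.0, 865.7 and 2917 CPM in the tdTom- libraries. Its mean was 16555 ± 6543 CPM (SD, n = 8) in tdTom+ and 1222 ± 803.9 CPM (SD, n = 8) in tdTom- cells. The groups do not overlap, and both maxima belong to mouse 7. Fcgbp rose by 3.76 on the log2 scale (SE 0.34, edgeR adjusted p = 5.66e-09), which is 13.6-fold. Zg16 measured 3527, 4794 and 6547 CPM in tdTom+ libraries and 165.5, 410.7 and 619.1 CPM in tdTom- libraries. The lectin was highest in mouse 2 in tdTom+ cells and lowest in mouse 1 in tdTom- cells, and again no library of one population reached the other. Its log2 fold change of 3.56 (SE 0.25, edgeR adjusted p = 1.24e-10) was the smallest among the members that rose.

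Fcgbp shares sequence with its neighbour, and this bears on how its reads were counted. Of the 10540 distinct words of 50 bases, the read length, in its GENCODE transcripts, 677 (6.42%) also occur in transcripts of another gene, most often 9530053A07Rik. In the reverse direction 684 of 11692 words (5.85%) of 9530053A07Rik are shared, most often with Fcgbp. 9530053A07Rik had 5.04% to 6.24% of the Fcgbp count in every one of the 16 libraries, although the Fcgbp level itself ranged from 537.0 to 31777 CPM. Its log2 fold change was 3.77 (SE 0.33, edgeR adjusted p = 2.78e-09), beside 3.76 for Fcgbp. Reads that match both genes could have been assigned to either, so the level of 9530053A07Rik is uncertain. Zg16, Tff2, Tff3, Agr2, Agr3, Spink4, Reg4 and Muc2 have no such word in common with another gene, and Tff1 shares 126 of 697 words (18.1%) with the antisense gene Gm15318, which strand-specific counting separates.

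The trefoil factors spanned the whole range from abundant to barely detected. Tff3, the intestinal trefoil factor, had 1538, 2077 and 3303 CPM in the lowest, median and highest tdTom+ library against 69.5, 166.4 and 214.7 CPM in tdTom- libraries. It rose 14.1-fold (log2 3.82, SE 0.25, edgeR adjusted p = 4.08e-11). The groups lie far apart, and mice 2 and 3 gave the highest tdTom+ levels. Tff2 was found at 1.16, 1.76 and 3.90 CPM in tdTom+ libraries and at 0, 0.0533 and 0.162 CPM in tdTom- libraries. These levels rest on 332 counts over all tdTom+ libraries, or 2.13 CPM with a 95% Poisson interval of 1.91 to 2.37, and on 10 counts over all tdTom- libraries, or 0.0549 CPM with an interval of 0.0263 to 0.101. Every tdTom+ library thus stood above every tdTom- library, while 2 tdTom- libraries had no count. The fitted log2 fold change of Tff2 was 5.16 (SE 0.43, edgeR adjusted p = 1.36e-09). Since Tff2 passed the filter on low counts only through its tdTom+ libraries, its inclusion already implies a difference in this direction. The Poisson intervals, here and for Tff1, cover counting error only.

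Tff1 was at the limit of detection. It had 7 counts in 5 tdTom+ libraries, those of mice 4 to 8, and 0 counts in all tdTom- libraries. Over the group this is 0.0449 CPM (95% Poisson interval 0.0181 to 0.0926) in tdTom+ cells, and 0 of 182192781 counts in tdTom- cells allow up to 0.0165 CPM, taken as 3 counts, or 0.0202 CPM as the upper end of the 95% Poisson interval. The intervals of the populations overlap, and no fold change is given for Tff1. Among other markers of gastric mucous cells, Gkn1 and Gkn2 had no count in any library, and of the 8 genes in that list only Muc6 and Tff2 could be tested. Their summed level was 2.72 to 7.13 CPM in tdTom+ and 0.191 to 0.508 CPM in tdTom- libraries.

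Agr2 and Agr3, neighbours of the same protein family, moved in opposite directions. Agr2 had 6242, 8634 and 9508 CPM in the lowest, median and highest tdTom+ library and 303.3, 386.5 and 767.2 CPM in tdTom- libraries. With a coefficient of variation of 15.1% over the tdTom+ libraries it was the least variable member there, close to the 14.3% of Muc2. Agr2 rose 18.4-fold (log2 4.20, SE 0.18, edgeR adjusted p = 5.61e-14). Agr3, in contrast, had 1.03, 1.504 and 2.63 CPM in tdTom+ libraries and 1.99, 2.91 and 4.42 CPM in tdTom- libraries. The ranges overlap, and the tdTom+ level was the lower one in 7 of 8 mice, mouse 7 being the exception. Its log2 fold change was -0.81 (SE 0.21, edgeR adjusted p = 0.00264) on 250 counts in tdTom+ and 531 counts in tdTom- libraries.

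The Agr3 call depended on which mice entered. Without mouse 1 its log2 fold change was -0.69 (edgeR adjusted p = 0.0135), without mouse 2 it was -0.71 (adjusted p = 0.0135), and in mice 5 to 8 alone it was -0.49 (adjusted p = 0.150), each above the adjusted p of 0.01 that a call required. Of the related isomerases, Txndc12 was 2.14-fold higher in tdTom+ cells (log2 1.09, SE 0.06, edgeR adjusted p = 8.30e-13), and Erp27 had 1 count in all.

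Spink4 and Reg4, both small secreted proteins, complete the set. Spink4 had 1957, 2656 and 4142 CPM in the lowest, median and highest tdTom+ library and 39.6, 76.5 and 150.3 CPM in tdTom- libraries. Its rise of 32.8-fold (log2 5.03, SE 0.28, edgeR adjusted p = 2.47e-12) was the largest among the abundant members. The lowest tdTom+ library of Spink4 was that of mouse 4, which also gave the lowest tdTom- level. Reg4 measured 1408, 1855 and 4028 CPM in tdTom+ libraries and 68.6, 127.4 and 225.3 CPM in tdTom- libraries. The maximum in both populations was mouse 7 and the minimum in both was mouse 4, with no overlap between populations. Reg4 rose 17.7-fold (log2 4.14, SE 0.26, edgeR adjusted p = 2.14e-11).

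Reg4 stands in a list of 6 deep crypt secretory cell markers, of which 5 including Reg4 itself were called higher in tdTom+ cells and 0 lower. The remaining marker, Cd44, was not called (log2 -0.39, SE 0.20, edgeR adjusted p = 0.0926), although its tdTom+ level was the lower one in 8 of 8 mice. With the mouse as a block its edgeR adjusted p was 5.35e-06. The Kazal relative that could be tested went with Spink4, and the Reg relatives that could be tested went against Reg4. Spink1 was 6.45-fold higher in tdTom+ cells (log2 2.69, SE 0.26, edgeR adjusted p = 1.34e-08), whereas Spink2 had 6 counts in all and Spink6 and Spink8 had 0. Reg3b and Reg3g, which encode antibacterial lectins, were lower in tdTom+ cells, with log2 fold changes of -2.95 and -1.64 (edgeR adjusted p = 1.03e-07 and 2.28e-05), and Reg3d had 0 counts. Of 6 Reg relatives 2 could be tested, with 0 higher and 2 lower in tdTom+ cells, and of 6 Kazal relatives 1 could be tested and was higher. Among those not tested, Spink5 (110 counts in all) averaged 0.652 CPM in tdTom+ and 0.0543 CPM in tdTom- libraries, higher in 7 of 8 mice. Reg3a (210 counts) averaged 0.0918 and 1.10 CPM, lower in 8 of 8 mice. The remaining untested relatives of these families had at most 73 counts in all. With the relatives of Agr2, Agr3 and Fcgbp included, 15 were counted and 5 could be tested. Of those 5, Txndc12, Spink1 and 9530053A07Rik were higher and Reg3b and Reg3g lower, and the level of 9530053A07Rik is uncertain because it shares reads with Fcgbp.

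Levels of different genes can be set side by side only per exon length, as reads per kilobase per 1e6 counts (RPKM). In tdTom+ cells Zg16 led with 7615 ± 1776 RPKM (SD, n = 8 for each of these means), followed by Agr2 with 6317 ± 955.0, Spink4 with 6124 ± 1780 and Tff3 with 4448 ± 1455 RPKM. Reg4 with 2227 ± 898.1, Muc2 with 1919 ± 274.5 and Fcgbp with 1577 ± 623.3 RPKM formed a lower tier. The transcripts of Zg16, Agr2, Spink4 and Tff3 were thus more abundant per length than that of Muc2 itself. Far below lay Tff2 with 3.69 ± 1.67, Agr3 with 1.74 ± 0.63 and Tff1 with 0.0859 ± 0.0855 RPKM. Among the 15841 genes tested, ordered by mean RPKM in tdTom+ cells, Zg16 ranked 4, Agr2 7, Spink4 8, Tff3 15, Reg4 21, Muc2 23 and Fcgbp 28.

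Several neighbours in this order did not differ beyond their spread. The ranges of neighbouring genes were separate only between Fcgbp and Tff2 and between Agr3 and Tff1 in tdTom+ cells. Zg16 exceeded Agr2 in 7 of 8 tdTom+ libraries, Agr2 exceeded Spink4 in 5, and Reg4 exceeded Muc2 in 3. Spink4 was above Tff3, and Tff3 above Reg4, in 8 of 8 libraries.

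In tdTom- cells Zg16 again led with 645.4 ± 266.5 RPKM, ahead of Agr2 with 343.7 ± 115.7 and Tff3 with 315.4 ± 116.1 RPKM. Spink4 moved from above Tff3 to below it, at 187.0 ± 85.1 RPKM, and it was below Tff3 in 8 of 8 tdTom- libraries. Reg4 had 126.0 ± 47.7, Fcgbp 116.4 ± 76.6 and Muc2 78.4 ± 30.7 RPKM. Fcgbp exceeded Muc2 in 7 of 8 tdTom- libraries, whereas Muc2 exceeded Fcgbp in 7 of 8 tdTom+ libraries. Agr3, at 3.03 ± 0.87 RPKM, stood above Tff2, at 0.111 ± 0.094 RPKM, in 8 of 8 tdTom- libraries, and Tff2 stood above Agr3 in 7 of 8 tdTom+ libraries.

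**Figure D2:**
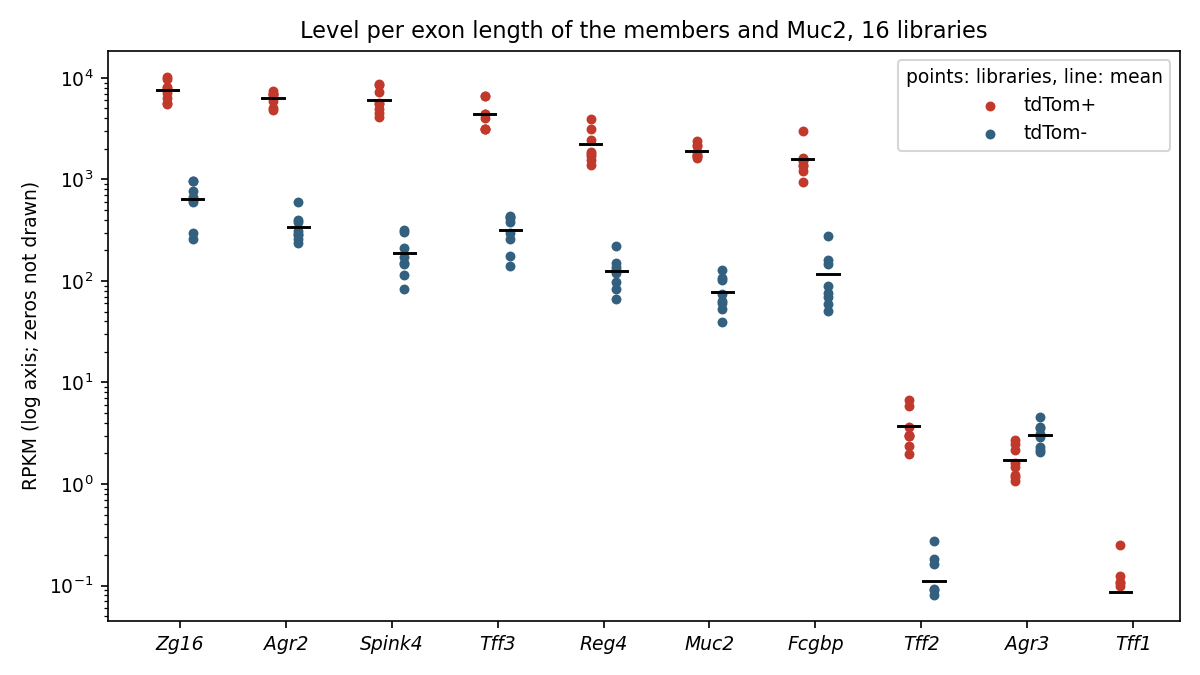
Level per exon length in RPKM on a log axis (y axis) for Muc2 and the members (x axis, ordered by their mean in tdTom+ cells), with red points for tdTom+ and blue points for tdTom- libraries and a black line at the mean of 8 libraries, zeros included in the mean but not drawn. The 6 abundant members and Muc2 sit between means of 1577 and 7615 RPKM in tdTom+ cells, and Tff2, Agr3 and Tff1 lie below 4 RPKM.

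The remaining level in tdTom- cells differed between members when each mouse was its own reference. Spink4 had a median of 2.83% of the tdTom+ level of the same mouse (1.71% to 5.58%), less than the 3.61% of Muc2. Agr2 had 4.93% (3.70% to 9.14%) and Reg4 5.31% (3.80% to 8.50%). Higher medians were seen for Fcgbp with 6.88% (3.70% to 11.9%), Tff3 with 7.32% (3.94% to 13.2%) and Zg16 with 7.70% (3.62% to 17.4%). Agr3 stood at 195% of its tdTom+ level, from 79.5% in mouse 7 to 296% in mouse 2.

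Subtracting the log2 difference of Muc2 from that of each member in the same mouse tests whether a member changed as much as Muc2, whose mean within-mouse difference was 4.70. The 8 members that passed the filter were compared in this way by an exact two-sided permutation test that flips signs over the 8 mice, which cannot give a p below 0.0078. Zg16 changed by 1.04 log2 units less than Muc2 (mean -1.04, SD 0.59, n = 8, exact p = 0.0078), Tff3 by 0.84 less (mean -0.84, SD 0.51, exact p = 0.0078) and Fcgbp by 0.79 less (mean -0.79, SD 0.47, exact p = 0.0078). In each of these the member was below Muc2 in 8 of 8 mice, and so was Agr3 (mean -5.50, SD 1.08, exact p = 0.0078). These 4 differences had the same sign and an exact p below 0.05 when any single mouse was left out.

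For the other members the difference from Muc2 was smaller or less regular. Agr2 was below Muc2 in 7 of 8 mice (mean -0.45, SD 0.52, exact p = 0.0469), as was Reg4 (mean -0.56, SD 0.60, exact p = 0.0313). Spink4 was above Muc2 in 7 of 8 mice (mean 0.41, SD 0.46, exact p = 0.0391). With a single mouse left out the exact p went above 0.05 for Agr2 in 7 of 8 cases and for Spink4 and Reg4 in 5 of 8 cases each. The p-values of all 8 comparisons are unadjusted. Tff2 gave -0.90 (SD 0.90, exact p = 0.0234) with a prior count of 2 but 0.13 (exact p = 0.727) with a prior count of 0.5, so its few counts do not fix the direction of its difference from Muc2.

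**Figure D3:**
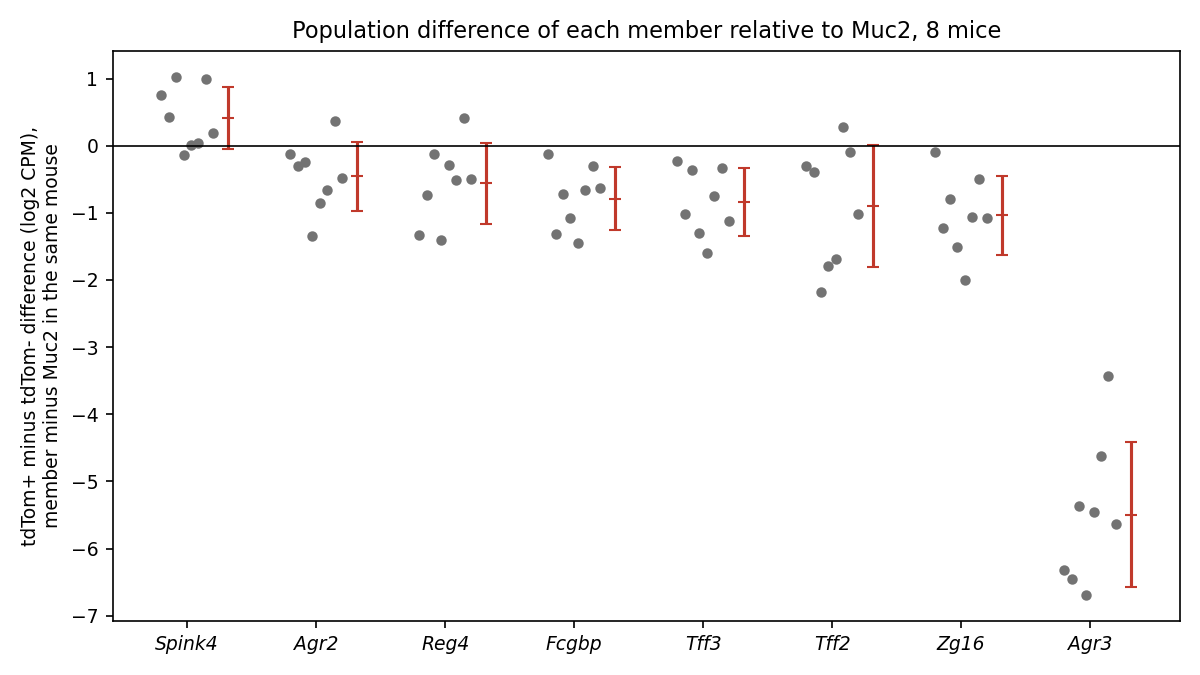
Difference between tdTom+ and tdTom- levels (log2 CPM) of each member minus that of Muc2 in the same mouse (y axis), for 8 members ordered by their mean (x axis), with grey points for mice in number order and red bars for the mean ± SD of 8 mice. The zero line marks a change equal to that of Muc2. Points of Zg16, Tff3, Fcgbp and Agr3 all lie below it, and 7 of 8 points of Spink4 lie above it.

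The mice fall into 3 series by number, mice 1 to 3, mouse 4 and mice 5 to 8, which the labels do not describe as batches. Within each series the 7 members that rose did so in every mouse. The mean within-mouse difference of Spink4 was 5.63 log2 units in mice 1 to 3, 5.62 in mouse 4 and 4.59 in mice 5 to 8. For Zg16 these values were 4.19, 4.25 and 3.12, for Tff3 4.36, 4.47 and 3.33, for Agr2 4.67, 4.42 and 3.88, and for Fcgbp 4.17, 4.68 and 3.52. Reg4 varied least between series with 4.17, 4.36 and 4.06, and Tff2 gave 3.93, 3.98 and 3.65. Agr3 gave -1.15, -0.92 and -0.50. The difference between series was not tested.

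Variation among libraries of the same population shows whether members go up and down together. Among tdTom- libraries Spink4 followed Muc2 most closely (r = 0.87, exact permutation p = 0.0064, adjusted over 16 relations p = 0.0773, rho = 0.76, exact p = 0.0368, n = 8). Fcgbp (r = 0.84, exact p = 0.0107, rho = 0.67, exact p = 0.0831) and Agr2 (r = 0.80, exact p = 0.0145, rho = 0.81, exact p = 0.0218) came next, also with adjusted p = 0.0773 for r by these exact permutation tests. Without mice 4 and 7, the farthest from the median of Muc2, r was 0.67 for Spink4, 0.73 for Fcgbp and 0.78 for Agr2, but for Reg4 it went from 0.69 to 0.05 and for Tff3 from 0.62 to 0.26. None of the 16 relations, 8 in each population, had an adjusted p below 0.05.

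Among tdTom+ libraries all 8 members had a negative r with Muc2, from -0.07 for Fcgbp to -0.73 for Zg16 (exact permutation p = 0.0513, adjusted p = 0.179, rho = -0.69, exact p = 0.0694, n = 8). Agr2 was next (r = -0.68, exact permutation p = 0.0672, adjusted p = 0.179). The sign was not stable for all of them, since Fcgbp had rho = 0.19 and Agr3 rho = 0.095, and without mice 1 and 5, the farthest from the median of Muc2, r was 0.13 for Fcgbp, -0.67 for Zg16 and -0.84 for Agr2. In tdTom- libraries 7 of the 8 members had a positive r, Agr3 being the exception with -0.08. Whether the relations differ between populations was not tested.

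Mouse 7 was high, and mice 1 and 4 low, for several members. Relative to the mean of its population on the log2 scale, mouse 7 was higher by 1.02 for Fcgbp and 0.92 for Reg4 in tdTom+ cells and by 1.48 and 0.90 in tdTom- cells. Its Zg16 and Tff3 levels did not share this, with deviations of -0.23 and -0.07 in tdTom+ cells. Clca1, a protease-like component of mucus that was named after its values were seen, deviated by 1.42 and 1.69 in mouse 7. Mouse 4 was low in its tdTom- library for Tff3 (-1.06), Spink4 (-1.04), Zg16 (-0.97), Reg4 (-0.82) and Fcgbp (-0.74), as it was for Muc2 (-0.91). This is the library with the largest total count. The tdTom- library of mouse 1 was lower still for Zg16 (-1.17) and Fcgbp (-0.96) and was also low for Tff3 (-0.74) and Spink4 (-0.59), while its Reg4 level was above the mean (0.35). Without the tdTom- library of mouse 4 the 7 members remained higher, and the log2 fold changes of Fcgbp and Reg4 were 3.67 and 4.05 in place of 3.76 and 4.14.

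**Figure D4:**
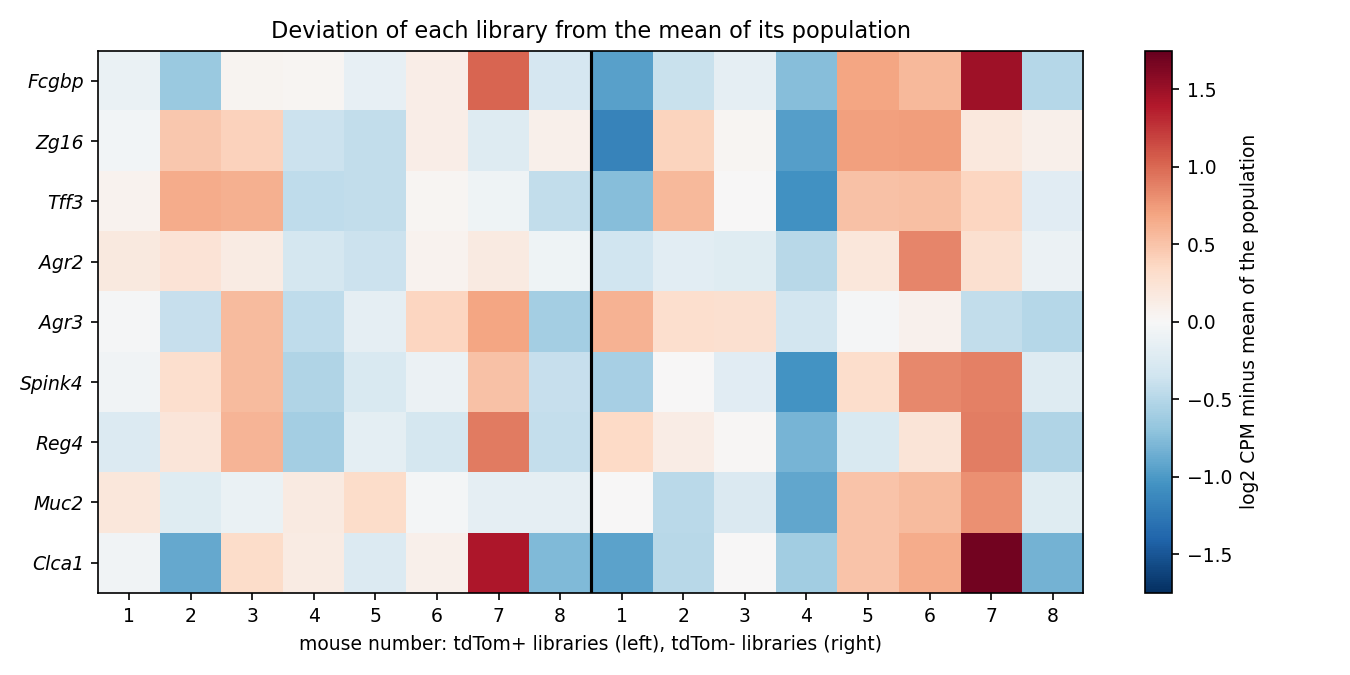
Deviation of each library from the mean of its population in log2 CPM (colour scale) for the abundant members, Agr3, Muc2 and Clca1 (rows) in tdTom+ and tdTom- libraries of mice 1 to 8 (columns). Mouse 7 is high for Fcgbp, Reg4 and Clca1 in both populations, mouse 4 is low in its tdTom- library for most rows, and mouse 1 is low there for Zg16, Fcgbp, Tff3 and Clca1.

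Outside the list, 5 genes had deviations most like the mean deviation of the 8 members tested over the 16 libraries. They were Ramp1 (r = 0.90), a receptor activity-modifying protein, Ccl6 (r = 0.90), a chemokine, the pentraxin genes Mptx2 (r = 0.88) and Mptx1 (r = 0.84), and 9030619P08Rik (r = 0.84). These coefficients rank 15841 genes and are given as a description without a test. The same genes were higher in tdTom+ cells, from a log2 fold change of 3.86 for 9030619P08Rik to 5.06 for Ccl6. Mptx1 averaged 20700 CPM in tdTom+ cells.

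The wider set of mucus layer genes split evenly. Of 18 genes listed beside the members, 16 could be tested, 8 were higher and 8 lower in tdTom+ cells. The median over these 16 was a log2 fold change of 0.74. The higher ones included the gel-forming mucins Muc2 and Muc6 (log2 4.85, SE 0.45, edgeR adjusted p = 8.66e-09). Muc6 averaged 2.62 CPM in tdTom+ libraries against only 0.0904 CPM in tdTom- libraries and, like Tff2, passed the filter on low counts only through its tdTom+ libraries, so its inclusion already implies a difference. Also higher were the antibacterial proteins Pla2g2a, a phospholipase (5.30, SE 0.14, adjusted p = 1.73e-16), and Retnlb, which binds bacterial lipids (4.42, SE 0.55, adjusted p = 6.46e-07). Muc5ac had 6 and Muc5b 4 counts in all, none of them in tdTom- cells. Among the lower genes were Tgm3, a transglutaminase that cross-links mucus (-3.84, SE 0.26, edgeR adjusted p = 7.50e-11), the meprin subunit Mep1b (-3.54, SE 0.16, adjusted p = 7.45e-14), Reg3b, and Lypd8, which binds flagellated bacteria (-2.37, SE 0.12, adjusted p = 5.75e-13).

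Split by role, the gel-forming mucins Muc2 and Muc6 were higher, with the limit just given for Muc6. Of 6 genes listed under mucus processing, Clca1 and Klk1 were higher and Tgm2, Tgm3 and Mep1b lower. Nlrp6, an inflammasome gene placed in the same list, was lower too. Of 8 antibacterial genes Retnlb, Itln1, Ang4 and Pla2g2a were higher and Lypd8, Dmbt1, Reg3b and Reg3g were lower. The members that were tested went in 1 direction apart from Agr3, with log2 fold changes between those of Klk1 and Pla2g2a.

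**Figure D5:**
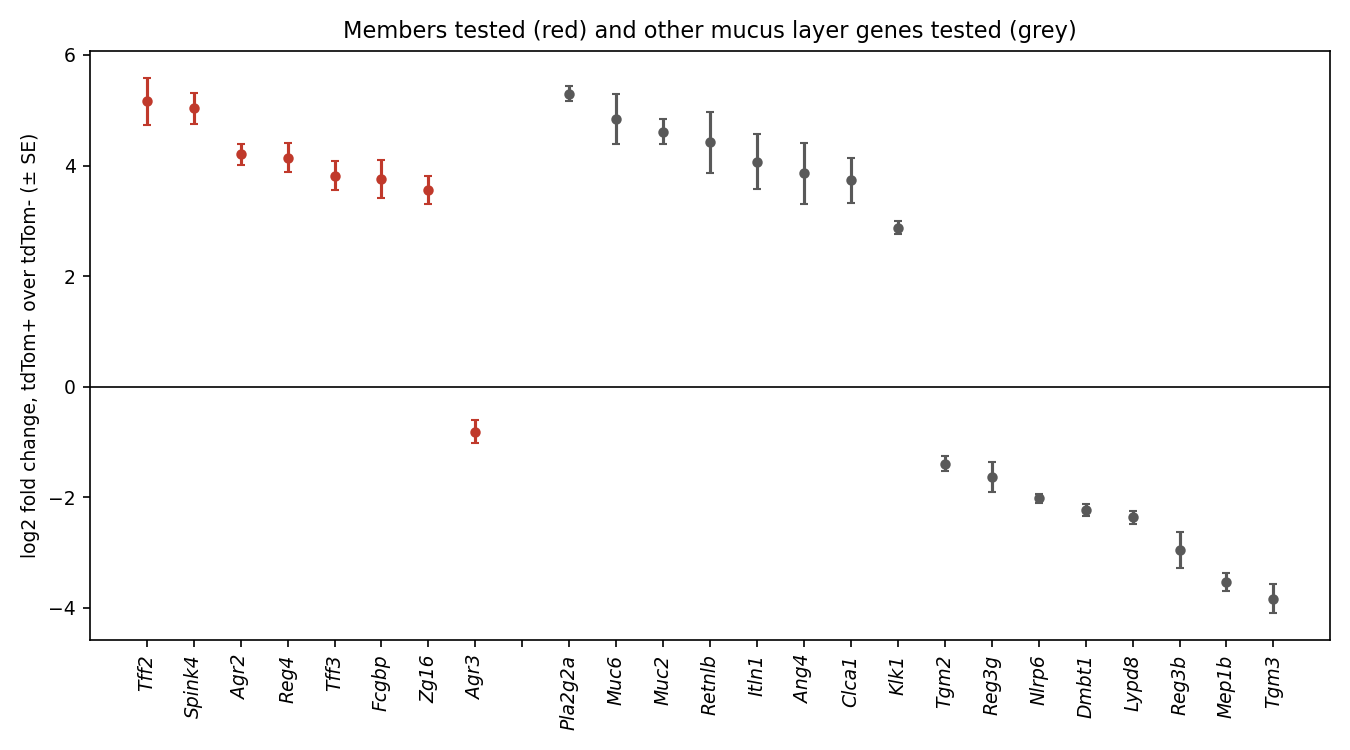
Log2 fold change of tdTom+ over tdTom- cells (y axis, bars give the SE of the edgeR estimate, 8 libraries in each population) for the 8 members tested in red and the 16 other mucus layer genes tested in grey (x axis, each set ordered by its value). In red, 7 members lie between 3.56 and 5.16 and Agr3 at -0.81, whereas the grey genes divide into 8 above and 8 below zero.

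Factors that specify goblet cells or equip them for secretion were mostly higher in tdTom+ cells, 9 of 10 rising and Klf4 falling. Beside Atoh1 the largest changes were those of Gfi1 (log2 4.37, SE 0.14, edgeR adjusted p = 1.47e-15), Spdef (4.34, SE 0.18, adjusted p = 2.56e-14) and Ern2 (2.87, SE 0.11, adjusted p = 6.45e-15), the last a stress sensor of the endoplasmic reticulum. The smallest were those of Xbp1 with 1.80, Foxa2 with 1.32, Foxa1 with 0.84 and Klf4 with -0.36 (SE 0.10, edgeR adjusted p = 0.00281). Of the 7 members that rose, 5 had smaller log2 fold changes than Spdef, and Spink4 and Tff2 had larger ones, without a test of these differences. For Tff2 this order is uncertain, since its estimate rests on 10 counts in tdTom- libraries. The median within-mouse difference of Tff2, with a prior count of 2, was 3.86 log2 units, below the 4.48 of Spdef.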

How the data were processed

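RNA sequencing counts were taken from 16 colon libraries, and the small intestine is not analysed here. Per the methods and the submitters' processing notes, the authors made TruSeq stranded mRNA libraries, aligned 50-base single-end reads to GRCm38.p3 with TopHat2 2.1.1 and counted primary alignments over exons on the reverse strand, with featureCounts 1.5.0-p1 in the file headers and Subread 1.5.2 in the notes. They deposited raw counts per gene for each sample, without normalization. Reads shared by near-identical genes could be assigned to either. Gene symbols came from GENCODE M21, which named 44585 of 45513 genes.

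Groups and mouse numbers came from the labels. The members and gene lists were chosen with earlier results of these data known, so the fold change tests are adjusted over all genes tested, the comparisons with Muc2 are unadjusted, and the correlations with Muc2 are adjusted over the 16 computed, all of which involve members. edgeR (version 4.0.16, R 4.3.3) was run on the deposited counts with filterByExpr and TMM, and its quasi-likelihood test (glmQLFTest) compared the populations without a mouse term, at a Benjamini-Hochberg adjusted p below 0.01. Standard errors were derived from the fold change and the F statistic. Levels are CPM over TMM library sizes, and log2 CPM has a prior count of 2. Both libraries of a number come from the same animal, and their deviations from the population means correlated at 0.22 to 0.41 over 15841 genes, against -0.26 to 0.17 for different mice. Alternatives were the mouse as a block, RLE or total-count scaling, DESeq2 1.42.0, no filter, at least 10 counts in every sample, an adjusted p of 0.05, each mouse left out, and mice 1 to 3 or 5 to 8 only. Leaving out the tdTom- library of mouse 4 was added after seeing the data. All fits were first tested on simulated data. No libraries of a group were as alike as sampling noise allows.

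The named genes are the members, Muc2 and Atoh1, the genes called in the lists of mucus layer genes, relatives and goblet cell regulators (the 4 largest and 4 smallest where over 8 were called), those with under 10 counts, and the 5 genes most like the members. Others were named after their values were seen. Summaries used Python 3.11.15, numpy 2.4.6, pandas 2.3.3, scipy 1.17.1 and matplotlib 3.10.9.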

Additional observations from a re-analysis of the deposited data

Results flagged for a closer look

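Each set of 8 libraries was examined for a single value far from the others, by Dixon's criterion at 95%. Of 26 sets 3 gave such a value, and about 1.3 would by chance. Fcgbp in the tdTom+ library of mouse 7 had a log2 CPM of 14.96, while the other 7 libraries lay between 13.29 and 14.05. The members together took 5.02% of the counts of the same library, against 3.03% to 3.94% in the others. The tdTom- library of mouse 4 had 45791503 counts, against 18318172 to 20668605 in the others.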

How the results depend on the processing

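Of 152 fold changes of members and Muc2 recomputed under alternatives, 149 gave the same call in the same direction, and 3, all of Agr3, lost the call without changing direction. With the mouse as a replicate block 7 members remained called higher, Agr3 had a log2 fold change of -0.82 (edgeR adjusted p = 0.000682), and the pairing changed no other call of a member. Without a filter 8 members were called higher, Tff1 included (DESeq2 gave Tff1 no adjusted p), and with at least 10 counts in every sample 6, since Tff2 drops out. In mice 1 to 3 alone 2546 genes were higher and 2559 lower, against 4032 and 4042 in all mice, with 3 mice a group. The number of members that differed from Muc2 at an exact p below 0.05 was 8 with all mice and 5 to 7 with a single mouse left out, where 7 mice cannot give a p below 0.0156. In mice 5 to 8 alone it could not be tested, since 4 mice cannot give a p below 0.125. With a prior count of 0.5 the Tff2 difference from Muc2 turned from -0.90 to 0.13. Depth limits Tff1, Tff2 and Agr3, and the other members had at least 1068 counts in every library.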
